A study of Rattus norvegicus with 24 samples.

Results

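The cartilage genes described here are 9 genes, Col2a1, Col9a1, Col9a2, Acan, Hapln1, Comp, Matn1, Matn3 and Sox9, taken as every non-control probe whose gene name in the scanner files equals 1 of these symbols. They have 14 probes among the 30367 non-control probes of the array, and 8 of the 9 genes were among the 20284 genes tested. They were measured in thyroid glands of RccHan Wistar rat pups on 24 single-colour Agilent arrays, 1 gland sample per array, 4 arrays in each of 6 groups. There were 3 acrylamide groups: females and males collected at night, and females collected in the morning. Their daily dose was 3 mg acrylamide per kg body weight in the drinking water, begun on gestational day 6 in the dams and kept up in the pups until postnatal day 35 ± 3. The 3 control groups, of the same sex and time, drank tap water. Night means 10 PM and morning 10 AM, and acrylamide is a small reactive molecule that binds thiol groups of proteins. The labels describe pups killed 5 per sex and time without saying which pup gave which replicate. A p-value here sets a difference against the spread among samples within groups, pooled over all 6 groups, and that spread may be technical.

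Cartilage is made by chondrocytes, which sit in a matrix of type II collagen fibrils with type IX collagen on their surface and the large proteoglycan aggrecan between them. The transcription factor Sox9 switches on many genes of this matrix in chondrocytes, and it is also made in other cell types. In the neck the thyroid lies against the larynx and the trachea, whose walls hold plates and rings of cartilage.

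A level below is log2 of a probe's processed signal minus the 75th percentile of its array, so 0 stands for that percentile and a step of 1 is a doubling. On night arrays, read in 1 scan session on 2 slides, 0 spots were saturated. Morning arrays were read in another session on 2 further slides, with 188 to 469 saturated spots per array and none among the spots of the cartilage genes. Between 71.5% and 82.3% of non-control spots were well above background, a flag that the scanner software sets. The thyroid follicular cell list, of 12 genes such as Tg, had a mean level of 1.99 to 2.73 on the 16 night arrays. In the morning it was -3.45, 1.41, 1.21 and 1.98 on acrylamide arrays 1 to 4, against 2.11, 2.35, 2.23 and 1.89 on control arrays 1 to 4. Acrylamide array 1 of the morning therefore stood apart in its thyroid markers, and morning results that it moved are given without it as well. Acrylamide array 4 of males at night, with parathyroid markers at -1.74 against 3.48 to 4.02 on the other 3 arrays of its group, was left out together with it in 1 of the alternatives.

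The genes of the cartilage matrix were low on all 16 night arrays and differed widely among the morning arrays. Col2a1, Col9a2 and Comp were highest on acrylamide arrays 2 and 3 and on control array 4, intermediate on acrylamide arrays 1 and 4, and lowest on control arrays 1, 2 and 3. In these 3 genes control array 4 was the 1 control above any acrylamide array. Acrylamide arrays 2 and 3 and control array 4 were the highest of the 8 in 7 of the 8 genes tested, all but Sox9, though in Col9a1 by a narrow margin. These 3 arrays were picked from these same values, so the count is a description. The share of all genes with these 3 arrays on top was not counted, here or for the further matrix genes below. In this bulk tissue, more cartilage cells in a sample and more RNA from each such cell cannot be told apart.

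The 60-base probes behind the matrix genes are shown first, because all values of a gene come from the few bases its probe reads. They are written 5′ to 3′ in lower case. For Col9a2 only the end is shown, where the capitals mark AATAAA, the letters of the polyadenylation signal.
Col2a1 (A_64_P000967, rn4 chr7:136679416-136679475, minus strand): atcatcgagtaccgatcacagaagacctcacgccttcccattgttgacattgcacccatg
Acan (A_43_P12154, rn4 chr1:134846027-134846595, plus strand, a genomic span of 569 bases): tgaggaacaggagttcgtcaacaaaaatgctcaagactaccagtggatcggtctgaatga
Comp (A_44_P295789, not mapped in the file): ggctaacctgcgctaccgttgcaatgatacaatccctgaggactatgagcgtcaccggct
Matn1 (A_64_P007550, rn4 chr5:149814383-149814442, plus strand): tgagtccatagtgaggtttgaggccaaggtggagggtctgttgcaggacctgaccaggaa
Matn3 (A_64_P007538, rn4 chr6:32454558-32456644, plus strand, a genomic span of 2087 bases): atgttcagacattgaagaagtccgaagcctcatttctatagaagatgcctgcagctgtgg
Col9a2 (A_64_P100413, rn4 chr5:141640162-141640221, plus strand, last 30 bases): gtaAATAAAagttcccaagttggttacaaa

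Col2a1 encodes the chain of type II collagen, the main fibril of cartilage. In morning females its level was -0.16, 1.71, 2.24 and -0.18 on acrylamide arrays 1 to 4, against -2.62, -2.78, -2.90 and 2.71 on control arrays 1 to 4. The highest of these 8 values belonged to a control and the next to acrylamide arrays 3 and 2. All 4 acrylamide arrays lay above control arrays 1 to 3 and below control array 4, so the groups overlapped. Among the 4 controls the highest level was 49.0 times the lowest on the linear scale, and among the 4 acrylamide arrays 5.34 times. At night Col2a1 was well above background on every array but low. It read -4.22, -3.98, -4.27 and -3.69 in acrylamide females, against -4.33, -4.50, -3.80 and -4.34 in control females. In males at night it read -4.62, -4.61, -3.93 and -4.21 with acrylamide, against -4.90, -4.22, -4.23 and -3.79 in controls. No night array therefore reached the lowest morning array.

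**Figure D1:**
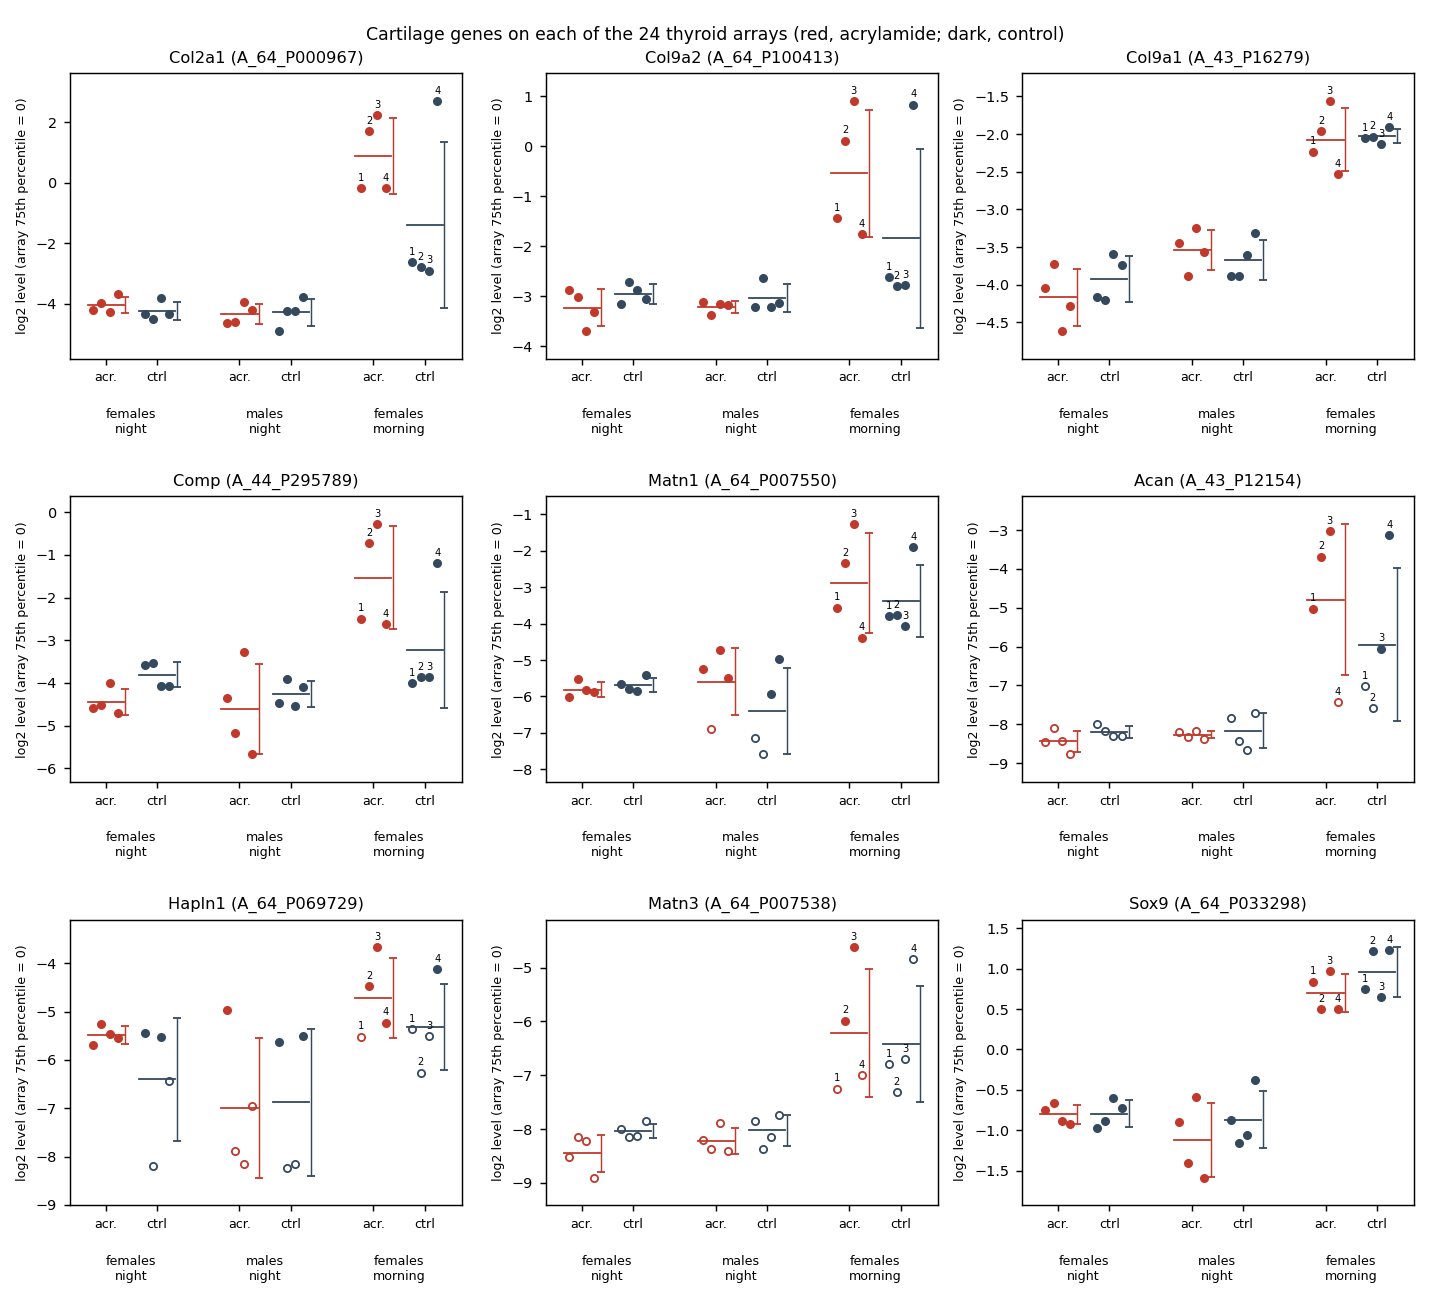
Each panel plots the log2 level of 1 cartilage gene (array 75th percentile = 0) on the 24 arrays, acrylamide in red and control in dark, with the group mean as a line and the SD as a bar beside it. Open points are arrays where the probe was not well above background, and numbers are replicates of the morning groups. Col2a1 reads 1.71 and 2.24 on acrylamide arrays 2 and 3 and 2.71 on control array 4 in the morning, while its 16 night values lie between -4.90 and -3.69.

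Col9a2 encodes a chain of type IX collagen, which coats type II fibrils. Its morning levels were -1.43, 0.11, 0.91 and -1.75 on acrylamide arrays 1 to 4, against -2.62, -2.79, -2.78 and 0.84 on control arrays 1 to 4. Control array 4 lay between acrylamide arrays 2 and 3, and the other 3 controls lay below all 4 acrylamide arrays. The 16 night levels ran from -3.70 to -2.63, with a median of -3.14, so control arrays 1 to 3 of the morning were near the upper end of the night values.

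Comp encodes cartilage oligomeric matrix protein, a pentameric glycoprotein that binds collagen and is also made in tendon. It read -2.49, -0.73, -0.28 and -2.63 on acrylamide arrays 1 to 4 of the morning, against -4.00, -3.86, -3.86 and -1.20 on the controls. Its 16 night levels ran from -5.67 to -3.27, and the 3 low morning controls fell inside that range. Comp also varied among males at night given acrylamide, where the highest array was 5.29 times the lowest, against 1.54 times in control males at night.

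Acan encodes aggrecan, the proteoglycan that holds water in cartilage. Its probe was well above background on 0 of the 16 night arrays, on 3 of 4 acrylamide arrays of the morning and on 2 of 4 morning controls. The morning levels were -5.02, -3.68, -3.03 and -7.43 with acrylamide, against -7.01, -7.59, -6.05 and -3.14 in controls. Acrylamide arrays 2 and 3 and control array 4 stood again at the top, and acrylamide array 4 was near control array 2. Because the night values are background readings, a difference from them is not a measured fold.

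Matn1 and Matn3 encode matrilins, adaptor proteins that link collagen fibrils to aggrecan, and matrilin-1 is known from tracheal cartilage. Matn1 read -3.56, -2.34, -1.27 and -4.39 on acrylamide arrays of the morning, against -3.80, -3.77, -4.07 and -1.91 in controls. Acrylamide array 1 was here close to control arrays 1 to 3, and acrylamide array 4 was the lowest of the 8. Matn3 read -7.25, -5.99, -4.62 and -7.00 with acrylamide, against -6.80, -7.31, -6.70 and -4.85 in controls. It was well above background on acrylamide arrays 2 and 3 of the morning and on no other array of the 24, so its reading on control array 4 is background. It did not pass the filter of 3 arrays in a group and was not tested.

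Different probes of Col9a1, Hapln1 and Sox9 did not give the same picture. Col9a1 encodes another chain of type IX collagen, Hapln1 the link protein that fixes aggrecan to hyaluronan, and Sox9 the transcription factor. Their probes are shown to let the target of each be compared. Where only 30 bases are given, the probe may lie beyond the coding part. The capitals mark the start codon in the second Sox9 probe.
Col9a1 (A_43_P16279, rn4 chr9:22940151-22940982, plus strand, a genomic span of 832 bases): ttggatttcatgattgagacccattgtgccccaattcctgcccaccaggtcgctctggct
Col9a1 (A_64_P074649, rn4 chr9:22989975-22990034, plus strand, last 30 bases): agagcatttagcaaagggcctgacaagtga
Col9a1 (A_43_P11136, rn4 chr9:22990092-22990153, plus strand, last 30 bases): actaaaagtttcacctcagacatcactaca
Hapln1 (A_64_P069729, rn4 chr2:19629918-19629977, plus strand): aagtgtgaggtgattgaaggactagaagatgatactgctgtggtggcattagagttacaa
Hapln1 (A_64_P069734, rn4 chr2:19637923-19637982, plus strand, first 30 bases): gctggacagaaaacaagtacaatgtagcag
Sox9 (A_64_P033298, rn4 chr10:102388891-102388950): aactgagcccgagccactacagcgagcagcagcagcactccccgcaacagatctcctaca
Sox9 (A_64_P033293, rn4 chr10:102393822-102393881): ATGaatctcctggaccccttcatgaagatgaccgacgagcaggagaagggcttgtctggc

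The Col9a1 probe with the highest mean, A_43_P16279, read -2.23, -1.96, -1.56 and -2.53 on morning acrylamide arrays, against -2.05, -2.03, -2.13 and -1.90 in controls. It spread by 1.17 times from lowest to highest among the 4 controls, so control array 4 was highest by little. Probe A_64_P074649 was likewise even, with -2.65, -2.89, -2.11 and -2.86 against -2.54, -2.59, -3.49 and -2.44. Probe A_43_P11136 lies 57 bases further along the chromosome. It read -5.26, -3.77, -3.11 and -5.42 with acrylamide, against -6.39, -7.02, -6.69 and -3.01 in controls, with the same 3 arrays on top as in Acan. At night it was well above background on 0 of 16 arrays, whereas the other 2 Col9a1 probes were well above background on all of them. In the morning it was well above background on acrylamide arrays 2, 3 and 4 and on control array 4, and the other 4 readings are background. Of the 3 probes named Col9a1, the 1 that read background at night was thus the 1 with a wide spread in the morning.

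Hapln1 showed a split of the same kind between its probes. Probe A_64_P069729, used in the tests, read -5.52, -4.47, -3.67 and -5.23 with acrylamide in the morning, against -5.37, -6.26, -5.50 and -4.12 in controls, a spread of 4.43 times among controls. Probe A_64_P069734 read -5.25, -2.85, -1.96 and -6.58 with acrylamide, against -6.89, -7.45, -7.05 and -2.17 in controls, a spread of 38.9 times among controls. It was well above background on acrylamide arrays 2 and 3 and control array 4 of the morning and on no other array. That is 2 of 4 and 1 of 4, so it failed the filter and was not tested. A further probe, A_64_P157704, was well above background on 0 of 24 arrays. It still read higher in the morning, at -6.41 ± 0.63 with acrylamide and -5.73 ± 0.70 in controls, against -7.96 ± 0.53 and -7.87 ± 0.12 in acrylamide and control females at night (SD, n = 4 each).

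Sox9 did not set control array 4 or acrylamide arrays 2 and 3 apart. Probe A_64_P033298 read 0.84, 0.50, 0.97 and 0.50 with acrylamide in the morning, against 0.74, 1.21, 0.65 and 1.23 in controls. Its groups overlapped, and acrylamide array 2 lay among the lowest of the 8. Probe A_64_P033293 read -6.08, -4.95, -4.46 and -4.36 with acrylamide, against -4.59, -3.56, -4.18 and -4.18 in controls. Its lowest value was on acrylamide array 1, the array with the low thyroid markers. The newer annotation gives the first probe a transcript ID in place of the name Sox9. In the rn4 coordinates of the file, which put both probes on the plus strand, the probe with the start codon lies after the first probe. These coordinates alone therefore do not settle the place of the first probe in the gene.

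**Figure D2:**
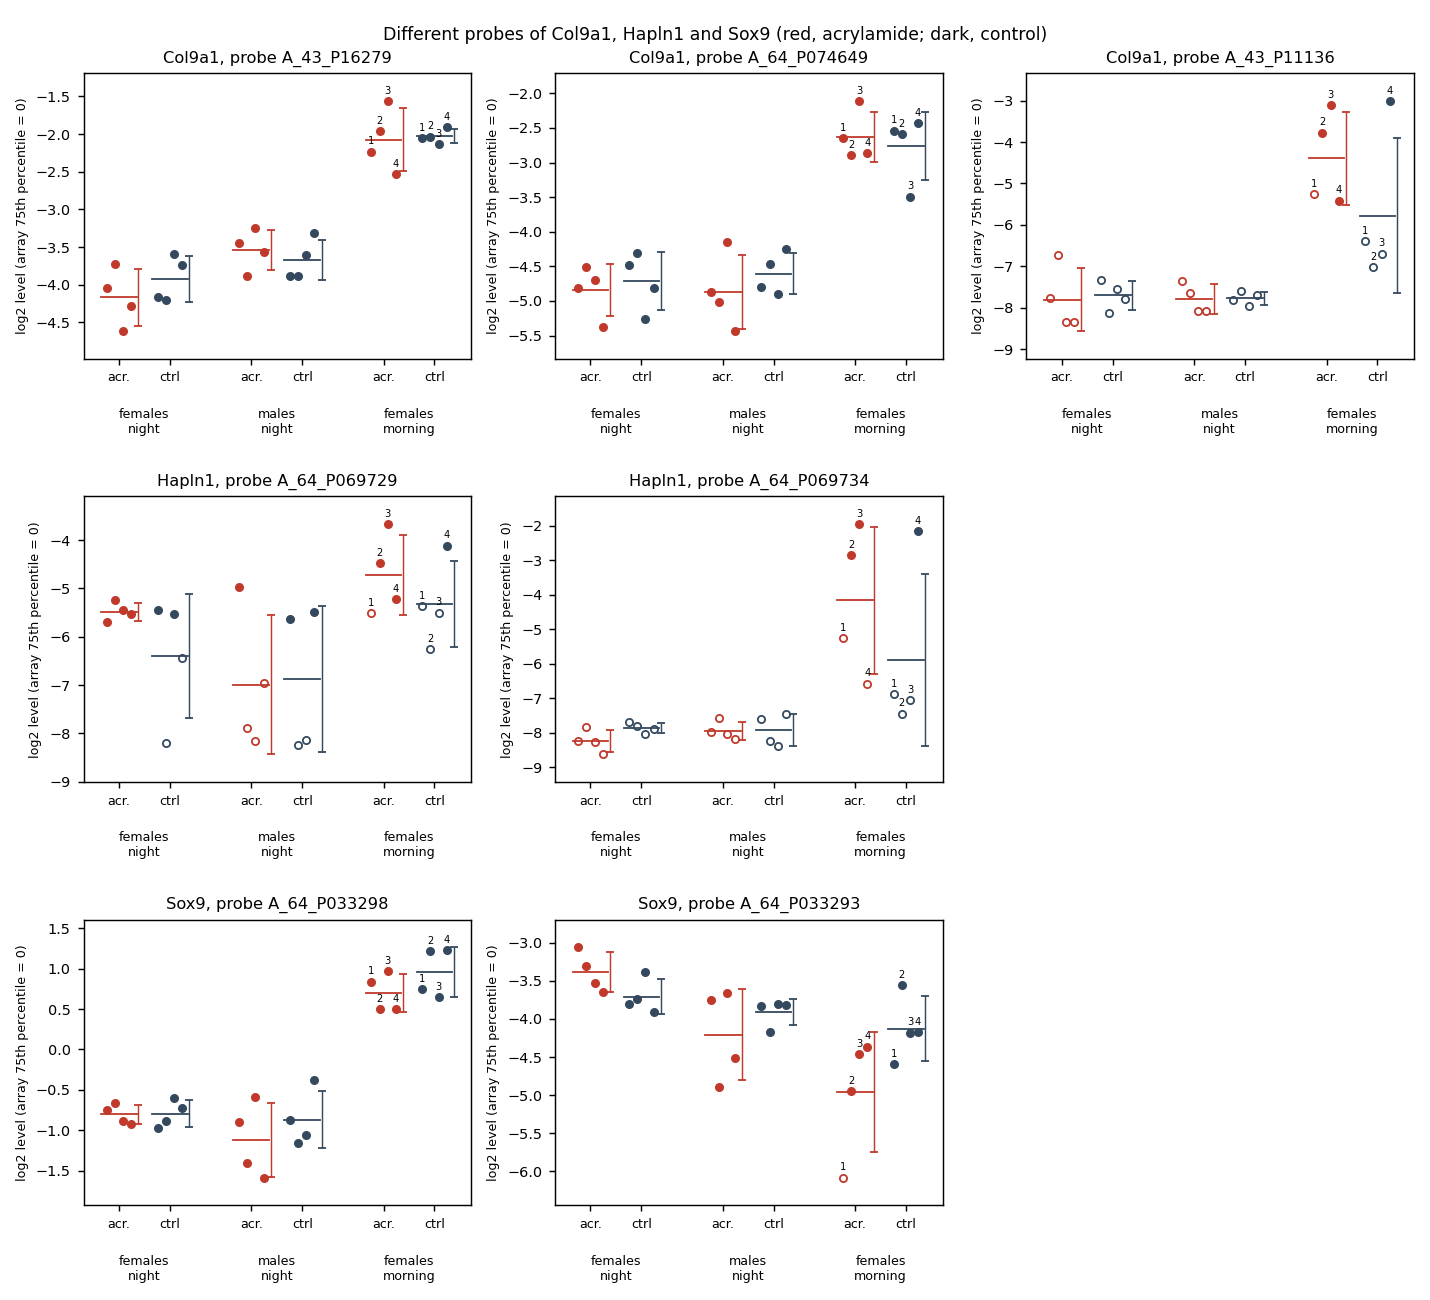
Each panel plots the log2 level (array 75th percentile = 0) of 1 probe of Col9a1, Hapln1 or Sox9 on the 24 arrays, acrylamide in red and control in dark, with the mean as a line and the SD as a bar. Open points are not well above background. Col9a1 probe A_43_P11136 and Hapln1 probe A_64_P069734 set control array 4 of the morning at -3.01 and -2.17, far above the other 3 controls, and the other probes of these genes do so less or not at all.

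The main comparison asks whether acrylamide at this low dose changed gene expression in the gland, within each sex and time. In morning females the acrylamide minus control difference in Col2a1 was 2.30 on the log2 scale (SE 0.84, limma adjusted p = 0.115), with means of 0.90 ± 1.26 in acrylamide and -1.40 ± 2.74 in control females (SD, n = 4 each). In Comp it was 1.70 (SE 0.59, adjusted p = 0.101), with means of -1.53 ± 1.20 in acrylamide and -3.23 ± 1.35 in control females. Col9a2 differed by 1.30 (SE 0.61, adjusted p = 0.201). Acan differed by 1.15 (SE 0.76, adjusted p = 0.356), and by 0.04 with normexp background. It passed the filter only through the morning acrylamide group, and 1 acrylamide and 2 control values in its means are background readings. The differences were 0.59 (SE 0.74) in Hapln1, 0.50 (SE 0.62) in Matn1, -0.04 (SE 0.22) in Col9a1 and -0.26 (SE 0.21) in Sox9. The Hapln1 probe was well above background on 3 of 4 acrylamide and 1 of 4 control arrays, so its difference includes background readings. None of the 8 genes tested passed the threshold of adjusted p under 0.05, which 2.11% of all genes did in either direction and 0.434% with a higher level. At an unadjusted p under 0.05 there were 3 of the 8, Col2a1, Comp and Col9a2, against 23.9% of all genes. In 0 of the 8 genes did the 4 acrylamide and 4 control arrays fail to overlap, against 8.58% of all genes. Tested probe by probe, an alternative added after the data had been seen, 0 of the 11 probes kept were called, against 1.83% of all probes. The median difference over the 8 genes was 0.87, and over all genes -0.11.

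These differences turned on single arrays. Without control array 4, Col2a1 was 3.67 higher with acrylamide (SE 0.44, adjusted p = 0.00130), Comp 2.38 higher (SE 0.51, adjusted p = 0.0421) and Col9a2 2.19 higher (SE 0.42, adjusted p = 0.0373). That made 3 of 8 genes past the threshold, against 0.902% of all genes. Without acrylamide array 4, Comp passed alone, 2.06 higher (SE 0.61, adjusted p = 0.0414), against 8.38% of all genes. Without acrylamide array 1 none of the 8 passed, and Col2a1 differed by 2.65 (adjusted p = 0.221). The labels do not set control array 4 aside. Of the 24 arrays it had the fewest spots well above background, at 71.5%, and the lowest 75th percentile, at 8.59 on the log2 scale of the signal, against 9.04 for the next. Its thyroid list mean of 1.89 lay below those of all 16 night arrays. The values without it are a measure of dependence and not a corrected result.

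Slide 3 held acrylamide arrays 2 and 3 with control arrays 1 to 3, and slide 4 held acrylamide arrays 1 and 4 with control array 4. Within slide 3, acrylamide minus control was 4.74 in Col2a1, 3.53 in Acan, 3.40 in Comp, 3.24 in Col9a2 and 2.07 in Matn1. Within slide 4, where there is a lone control, it was -2.88 in Col2a1, -3.09 in Acan, -1.36 in Comp, -2.43 in Col9a2 and -2.06 in Matn1. The sign thus differed between the slides in each of these 5 genes, but the lone control of slide 4 is control array 4, so slide and that array cannot be told apart here. Acan's means include background readings on both slides. With slide as a term in the fit, the differences were near those without it, 2.02 in Col2a1 (SE 0.85, adjusted p = 0.216) and 1.70 in Comp (SE 0.62, adjusted p = 0.161), and 0 of 8 genes were called.

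**Figure D3:**
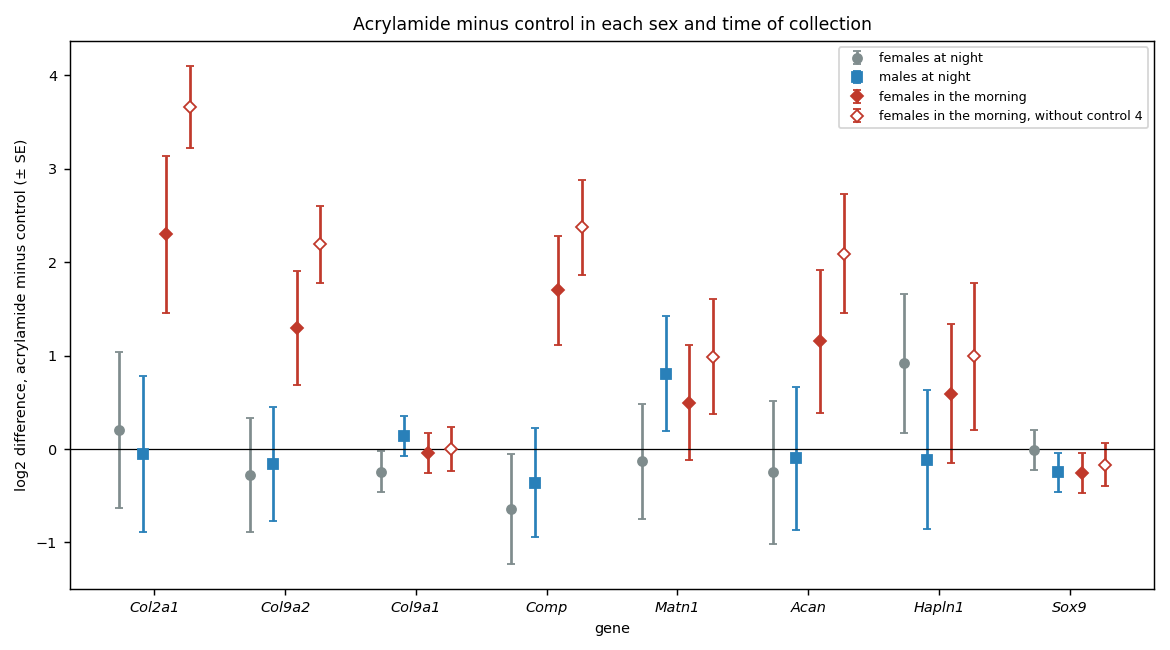
Points give the log2 difference, acrylamide minus control, for the 8 cartilage genes tested, and bars the SE from the limma fit, for both sexes at night and for morning females. Open diamonds repeat the morning comparison without control array 4. Col2a1 moves from 2.30 to 3.67 when that array is left out, while the night differences lie between -0.64 and 0.92.

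At night acrylamide left no cartilage gene past the threshold in either sex. In females at night the 8 differences ran from -0.64 in Comp (SE 0.59) to 0.92 in Hapln1 (SE 0.74), with 0 of 8 called, against 0% of all genes, and the lowest unadjusted p was 0.230, where 1.87% of all genes were under 0.05. Hapln1 averaged -5.48 ± 0.19 in acrylamide and -6.40 ± 1.28 in control females at night (SD, n = 4 each), and 4 acrylamide arrays and 2 control arrays of the 4 in each group read its probe well above background. In males at night the differences ran from -0.36 in Comp (SE 0.59) to 0.81 in Matn1 (SE 0.62), with 0 of 8 called, against 0% of all genes, and the lowest unadjusted p was 0.206, where 13.6% of all genes were under 0.05. Matn1 averaged -5.59 ± 0.92 in acrylamide and -6.40 ± 1.19 in control males at night, and the arrays overlapped. Its probe was well above background on 3 of 4 acrylamide and 2 of 4 control males. Every Matn1 difference that uses these groups thus includes background readings. Groups failed to overlap in 0 of 8 genes in either sex, against 5.46% of all genes in females and 4.46% in males.

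The acrylamide effect was also compared between the sexes and between the times. Males minus females at night, it differed by -1.03 (SE 1.05) in Hapln1 to 0.94 (SE 0.88) in Matn1, with 0 of 8 genes called, against 0% of all genes, and none at an unadjusted p under 0.05, against 2.20%. Background readings enter both the Hapln1 and the Matn1 value. Morning minus night in females, it differed most in Comp, by 2.34 (SE 0.83, adjusted p = 0.230), and in Col2a1, by 2.09 (SE 1.18, adjusted p = 0.375). None of the 8 was called, against 0% of all genes, and Comp alone had an unadjusted p under 0.05, against 16.3% of all genes. At night the treatment also coincides with the array row, with acrylamide in row 2 and controls in row 1.

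Control females of the morning and the night were set against each other, a comparison in which collection time, slide and scan session cannot be told apart. Morning minus night, 5 of the 8 genes were called, all higher in the morning, against 48.6% of all genes in either direction and 27.8% higher. The same 5 were those at an unadjusted p under 0.05, against 54.3% of all genes. Col2a1 was 2.85 higher (SE 0.84, adjusted p = 0.00767), Matn1 2.30 (SE 0.62, adjusted p = 0.00416), Col9a1 1.89 (SE 0.22, adjusted p = 3.6e-07) and Sox9 1.75 (SE 0.21, adjusted p = 7.0e-07). These SEs also rest on the pooled spread. The SD of Col2a1 was 2.74 in morning controls and 0.30 in night control females, so its SE understates the spread of the morning controls. Acan was called higher (adjusted p = 0.0196). Its mean was -5.95 ± 1.98 in the morning, where 2 of the 4 readings are background, against -8.19 ± 0.15 at night, where all 4 are. Background also read higher in the morning, as the Hapln1 probe A_64_P157704 shows at -5.73 against -7.87, so no fold is given for Acan. In these same 5 genes, with Acan's background readings counted, the arrays of the groups did not overlap, against 57.0% of all genes in either direction and 30.2% higher. Col9a2 differed by 1.11 (SE 0.61, adjusted p = 0.142), Hapln1 by 1.09 (SE 0.74, adjusted p = 0.240) and Comp by 0.58 (SE 0.59, adjusted p = 0.441). The Hapln1 probe was well above background on 1 of 4 morning and 2 of 4 night arrays here, so background readings enter its difference.

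For Sox9 the morning difference depended on the probe. Tested on its own, probe A_64_P033293 differed by -0.42 (SE 0.32, adjusted p = 0.298), in the test of every probe. The 3 Col9a1 probes were all called higher in the morning by this test, A_43_P16279 by 1.89 (SE 0.22) and A_64_P074649 by 1.95 (SE 0.29), where 47.6% of all probes were called. Probe A_43_P11136 (adjusted p = 0.0174) had means of -5.78 in the morning, where 1 of 4 arrays was well above background, and -7.70 at night, where none was. Most readings behind its call are background, which itself read higher in the morning, so no fold is given. Without control array 4 of the morning, Acan was no longer called (1.30, adjusted p = 0.105). Males minus females in controls at night, 0 of the 8 genes were called, against 0.00986% of all genes, and differences ran from -0.72 in Matn1 (SE 0.62) to 0.25 in Col9a1 (SE 0.22), with none at an unadjusted p under 0.05, against 1.63%. Their arrays failed to overlap in 0 of the 8, against 3.73% of all genes.

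Of 17 further genes of the cartilage matrix listed, 15 were tested, and Col9a3 and Scrg1 were not. In 9 of the 15, among them Col10a1, Chad, Ucma and Snorc, acrylamide arrays 2 and 3 and control array 4 were the 3 highest of the morning. In the other 6, Cilp, Cytl1, Epyc, Itga10, Matn4 and Prelp, they were not, and Cilp, a protein of the middle zone of articular cartilage, was lowest on control array 4. In morning females 13 of the 15 differences between acrylamide and control were positive, with a median of 1.08, and 0 were called, against 2.11% of all genes. The widest in the positive direction were Col10a1, type X collagen of hypertrophic chondrocytes, Cnmd, the angiogenesis inhibitor chondromodulin, and Col11a1, a chain of type XI collagen in type II fibrils. Col10a1 read -1.98, -0.25, 0.64 and -2.75 with acrylamide, against -5.70, -5.67, -4.93 and -0.12 in controls, and was well above background on 0 of 16 night arrays. Its difference was 3.02 (SE 0.88, adjusted p = 0.0664). Col10a1 passed the filter only through the morning acrylamide group and was well above background on 2 of the 4 morning controls. This difference thus includes background readings. Cnmd read -1.69, 0.15, 0.91 and -2.44 with acrylamide, against -3.07, -4.19, -5.45 and 1.06 in controls (difference 2.15, SE 1.08, adjusted p = 0.228). Col11a1 differed by 1.62 (SE 0.77, adjusted p = 0.205). Control array 4 was the highest of the controls in all 3. Without that array 6 of the 15 were called higher with acrylamide, against 0.902% of all genes, with Col10a1 4.35 higher (adjusted p = 0.00231) and Col11a1 2.65 higher (adjusted p = 0.0463). The Col10a1 value still counts background readings in the controls that remain, after a filter passed only through the acrylamide group. Control array 4 was singled out from these same values. These calls are thus a measure of dependence on that array and not support for an effect. Without acrylamide array 4, 4 were called higher and 2 lower, against 8.38% of all genes.

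The negative differences were in Prelp, a leucine-rich repeat proteoglycan that is not confined to cartilage (-0.90, SE 0.24, adjusted p = 0.0528), and Matn4, a matrilin with a wide distribution (-0.72, SE 0.29, adjusted p = 0.150). Both were lowest on acrylamide array 1, and without it Prelp differed by -0.55 (adjusted p = 0.166) and Matn4 by -0.26 (adjusted p = 0.569). Both were called lower without acrylamide array 4, Prelp by -1.10 (adjusted p = 0.00921) and Matn4 with adjusted p = 0.0293. Prelp was also called without acrylamide array 2 (-0.95, adjusted p = 0.0451) or 3 (-1.01, adjusted p = 0.0246). Morning minus night in control females, 3 of the 15 were called higher, against 27.8% of all genes, and 1 lower, against 20.8% of all genes, so both shares lay below the background. Chad, the leucine-rich protein chondroadherin, was 2.63 higher (SE 0.62, adjusted p = 0.0015), Itga10, a collagen-binding integrin of chondrocytes, 1.45 higher (SE 0.22) and Prelp 0.61 lower, a difference of -0.61 (SE 0.24, adjusted p = 0.0407). Col10a1 read higher in the morning, with means of -4.10 in the morning, where 2 of 4 arrays were well above background, and -7.55 at night, where none was. Its difference includes background readings on both sides, so no fold is given.

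**Figure D4:**
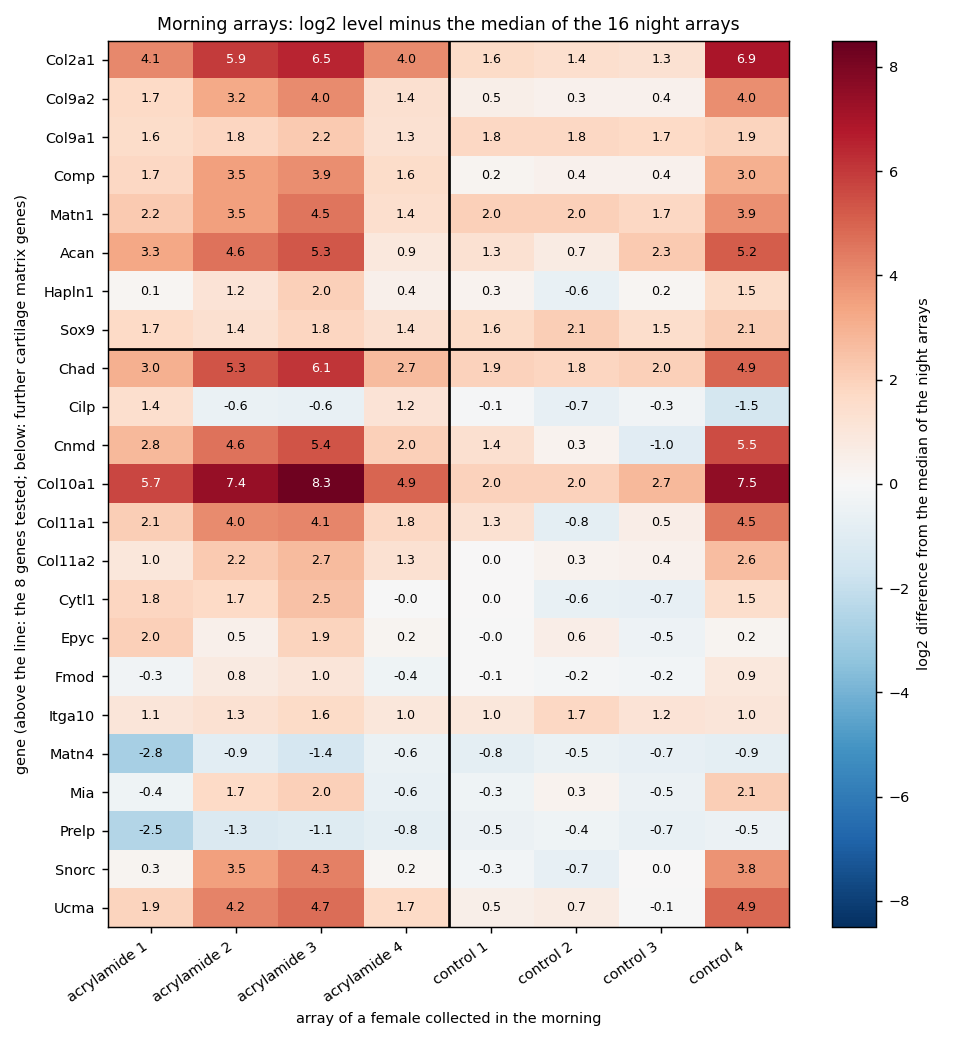
Each cell gives, for 1 gene (rows) on 1 morning array (columns), the log2 level minus the median of the 16 night arrays, with red above and blue below that median. The 8 cartilage genes tested are above the line and 15 further matrix genes below it. Acrylamide arrays 2 and 3 and control array 4 carry the highest values of Col2a1 (5.9, 6.5 and 6.9) and Col9a2 (3.3, 4.1 and 4.0), whereas Col9a1 and Sox9 are even across the 8 arrays. The rows of Acan and Col10a1 are set against night values that are all background readings, so they are not measured differences.

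Of 9 regulators and sulfation enzymes of cartilage listed, 7 were tested, and Sox5 and Nkx3-2 were not. In morning females 0 of 7 were called, against 2.11% of all genes, with a median difference of 0.05. The widest differences were 0.74 (SE 0.47) in Sox6, a partner of Sox9, 0.73 (SE 0.30) in Fgfr3, a receptor that restrains growth plate chondrocytes, and 0.40 (SE 0.21) in Wwp2, a ubiquitin ligase. In the other direction they were -1.26 (SE 0.39, adjusted p = 0.0806) in Chst11, a chondroitin sulfotransferase, -0.19 (SE 0.23) in Ihh, the hedgehog ligand of prehypertrophic chondrocytes, and -0.10 (SE 0.37) in Xylt1, which starts glycosaminoglycan chains. Chst11 differed by -0.78 (adjusted p = 0.331) without acrylamide array 1, and it was called lower without acrylamide array 3 (-1.45, adjusted p = 0.0364) or 4 (adjusted p = 0.0395). Fgfr3 differed by 0.47 (adjusted p = 0.54) without acrylamide array 1, and it was called higher without acrylamide array 2 (1.02, adjusted p = 0.0430). Morning minus night in control females, Fgfr3 (-0.98, SE 0.30, adjusted p = 0.0102) and Wwp2 (-0.56, SE 0.21, adjusted p = 0.0293) were called lower. That is 2 of 7, against 20.8% of all genes, and 0 of 7 were called higher, against 27.8%.

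The likeness among the cartilage genes was described by Pearson's r over the 24 arrays with each group's mean subtracted, points that share tissue, slide and scan session. Against the mean of the other 7 genes tested, r was 0.87 in Col9a2, 0.86 in Acan, 0.85 in Col2a1, 0.80 in Comp and 0.79 in Matn1. It was 0.57 in Col9a1, 0.47 in Sox9 and 0.44 in Hapln1. The 10 genes most like the mean of the 8 were Col10a1 (0.95), Chad (0.93), S100a7l2 (0.91), Six2 (0.89), Ucma (0.88), Col11a1 (0.88), Snorc (0.87), Auts2 (0.83), Golt1b (0.83) and Prrg3 (0.82). Of these, Col10a1, Chad, Ucma, Col11a1 and Snorc are on the list of further matrix genes. With group means left in, 5 of the 10 remained among the top 10, Chad, Col10a1, Prrg3, S100a7l2 and Ucma, while r of Golt1b turned to -0.46.

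Markers of neighbouring tissues were set beside the cartilage genes on the same arrays. The mean of the 8 cartilage genes was -2.45, -1.36, -0.71 and -2.95 on morning acrylamide arrays 1 to 4, against -3.34, -3.48, -3.33 and -0.94 on controls, and from -5.19 to -4.11 on night arrays. The further matrix genes went with it (r = 0.94), at -1.68, -0.52, -0.05 and -1.85 with acrylamide, against -2.41, -2.57, -2.66 and -0.37 in controls. Airway epithelium, of which 10 of 15 markers were tested, did not (r = 0.14), at -3.08, -2.41, -3.18 and -3.62 against -3.34, -3.01, -3.34 and -3.17. Oesophageal squamous epithelium (8 of 10 tested, r = 0.26) was high on acrylamide arrays 1 and 3, at 1.24 and 2.23, against -1.35 and -3.54 on acrylamide arrays 2 and 4 and -3.24 to -2.17 on controls. Krt13, a keratin of that epithelium, was 4.78 higher with acrylamide (adjusted p = 0.0414). Without acrylamide array 1 the difference was 3.75 (adjusted p = 0.165), and it was also not called without any 1 of the controls.

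Other lists did not rank the arrays as the cartilage genes did, though some were high on part of the same arrays. Skeletal muscle (11 of 12 tested, r = 0.31) lay at 5.73 to 6.27 on morning acrylamide arrays and at 4.52 to 6.36 on controls. T cell and thymocyte markers (7 of 8 tested, r = 0.34) stood at 1.43 on acrylamide array 2, against -2.02 on control array 4 and -4.96 to -3.28 on the other 6. Bone markers (4 of 6 tested, r = 0.45) were highest on acrylamide arrays 3 and 2, at -3.05 and -3.79, and read -4.48 on control array 4. Fibroblast and tendon genes (11 of 11 tested, r = 0.37) lay at 2.01 to 2.58 with acrylamide and at 1.69 to 2.38 in controls. For smooth muscle r was 0.29, for C cells 0.14, for thyroid follicular cells 0.09, for parathyroid 0.06, for pituitary -0.08 and for fat -0.23. Control array 4, the array with the highest Col2a1, was not high in oesophageal or airway markers. It had the highest skeletal muscle mean of the morning arrays (6.36) and the second highest T cell mean (-2.02). Its fibroblast and tendon mean (2.38) was the highest of the morning controls. Acrylamide array 1, with the second highest oesophageal mean, had intermediate Col2a1. The part of any of these tissues in the cartilage values was not tested.

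**Figure D5:**
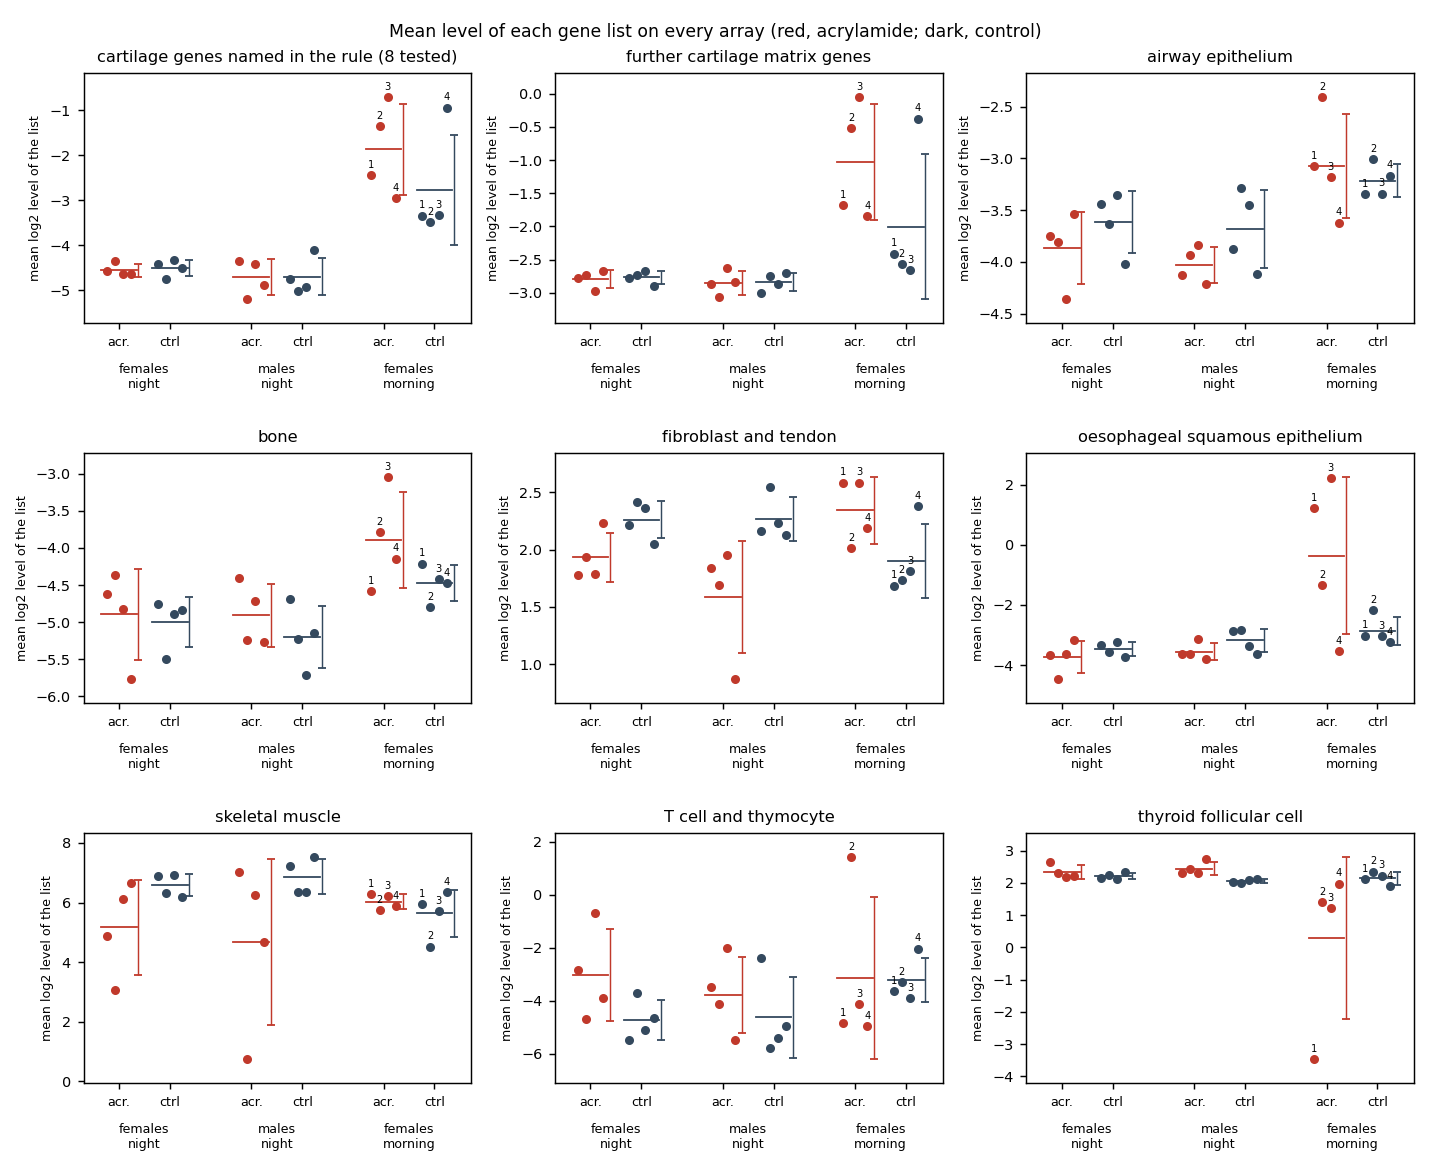
Each panel plots the mean log2 level of 1 gene list on the 24 arrays, acrylamide in red and control in dark, with the group mean as a line and the SD as a bar. The cartilage genes and the further matrix genes put acrylamide arrays 2 and 3 and control array 4 of the morning at the top (-1.36, -0.71 and -0.94 for the 8 cartilage genes), and no other list shown has these 3 arrays on top.

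The promoters were searched for letters that the genes may share near their start. RefSeq (GRCr8) promoter sequences, from 250 bases before to 50 after the start, were found for 6 of the 9 genes, and Col2a1, Matn1 and Sox9 were not matched. The SOX core ACAANG, N being any base, was searched on both strands and occurred in 2 of the 6, against 42.1% of 33469 rat promoters of this length. The TATA box TATAAA, on both strands, occurred in 0 of the 6, against 14.2% of all. Hapln1 held 2 cores on the plus strand, 125 bases before and 44 after the start, and Col9a1 held 1 on the minus strand, 25 bases before it. No pair of cores on opposite strands within 10 bases was present in either, against 0.68% of all promoters. Acan, Col9a2, Comp and Matn3 had none in this window. Of the genes most alike over the arrays, Acan, Col9a2 and Comp thus had no core, and Col2a1 and Matn1 were not matched. Hapln1 and Col9a1, which had one, were less like the others (r = 0.44 and 0.57). The 2 promoters with a core are shown with the core in capitals (CNTTGT where it lies on the minus strand), because they hold the letters searched.
Hapln1 (GRCr8 chr2:22366717-22367016, plus strand): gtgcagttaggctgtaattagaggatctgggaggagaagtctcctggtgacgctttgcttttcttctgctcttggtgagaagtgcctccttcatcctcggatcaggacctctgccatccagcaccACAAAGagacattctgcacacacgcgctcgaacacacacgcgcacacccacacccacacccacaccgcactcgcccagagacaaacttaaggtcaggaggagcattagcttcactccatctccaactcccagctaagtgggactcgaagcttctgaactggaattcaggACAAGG
Col9a1 (GRCr8 chr9:34081114-34081413, plus strand): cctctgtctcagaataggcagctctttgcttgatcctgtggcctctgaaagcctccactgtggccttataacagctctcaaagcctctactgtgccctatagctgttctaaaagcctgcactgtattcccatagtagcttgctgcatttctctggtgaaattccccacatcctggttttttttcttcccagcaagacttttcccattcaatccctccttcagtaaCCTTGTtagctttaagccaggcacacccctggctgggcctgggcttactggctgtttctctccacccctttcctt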

How the data were processed

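The deposited scanner files were written by Agilent Feature Extraction (10.1.1.1, per the file headers) and give each spot a processed signal, an intensity after background subtraction, with quality flags. The headers name build rn4. The deposited series matrix holds log2 values that follow log2 of the processed signal minus a constant per array. From the deposited intensity, uneven and outlier spots were removed, log2 values of replicate spots were averaged and each array's 75th percentile was subtracted. Probes well above background on at least 3 of 4 arrays of a group were kept (23416), and the probe with the highest mean stood for a gene. Limma 3.58.1 in R 4.3.3 fitted 6 group means on 24 arrays (18 residual degrees of freedom), 2-sided, with Benjamini-Hochberg adjustment over 20284 genes and a threshold of 0.05. It was tested on simulated data.

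The 9 genes and all lists were chosen with earlier results of these data known. Genes were named by rule: the 9 genes, listed matrix genes and regulators that passed a threshold or, with none, up to 3 in each direction, list markers that passed, and the 10 most alike. Where no array of a group was well above background, no fold is given for a difference from it. Alternatives were normexp background, quantile, median and matrix scaling, other filters and probes, fewer groups, a replicate block, slide and arrays left out. The number of arrays limits precision.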

Additional observations from a re-analysis of the deposited data

Results flagged for a closer look

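Levels of the 11 probes kept were checked in each of the 6 groups of 4 arrays, 66 sets in all, for an array whose gap to the nearest other, as a share of the group's range, passed Dixon's critical value. Chance marks about 1 in 20 such sets. There were 8. In morning controls, array 4 was far above the other 3 in Col2a1 (2.71, others -2.90 to -2.62), Col9a2 (0.84, others -2.79 to -2.62), Comp (-1.20, others -4.00 to -3.86), Matn1 (-1.91, others -4.07 to -3.77) and Col9a1 probe A_43_P11136 (-3.01, others -7.02 to -6.39, which are background readings). These 5 share 1 array and are not independent of each other. In the same group, array 3 was far below the others in Col9a1 probe A_64_P074649 (-3.49, others -2.59 to -2.44). In control males at night, array 2 was lowest in Sox9 probe A_64_P033293 (-4.17, others -3.84 to -3.80) and highest in Col9a2 (-2.63, others -3.21 to -3.13).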

How the results depend on the processing

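With acrylamide in morning females the count of cartilage genes called was 0 of 8, and it ranged from 0 to 3 when 1 array was left out: 3 without control array 4 and 1 without acrylamide array 4. All other settings gave 0, including the replicate block. Morning minus night in control females gave 5 of 8, 8 with normexp background (58.6% of all genes), 4 with quantile normalization (52.9%), 4 with only the groups compared (60.0%), 4 of 7 with the stricter filter (47.8%), 6 of 9 with no filter (55.1%) and 4 to 5 with 1 array left out. The other 5 comparisons gave 0 of 8 under every setting run. The near-zero morning acrylamide difference of Col9a1 (-0.04) changed sign with the mean of all probes (0.49), with slide as a term (0.029), without the 2 arrays that stand apart (0.012) and over arrays left out (-0.21 to 0.11). Hapln1 turned to -0.13 with normexp background, Matn1 ran from -0.042 to 1.00 over arrays left out, and the morning minus night difference of Comp from -0.10 to 0.84. The cause of these changes was not tested. With normexp background the acrylamide difference of Acan was 0.04 and that of Comp 0.98. Over all genes, the morning acrylamide comparison called 427, against 12 with median scaling, 12 with the matrix values, 222 with normexp background, 965 with quantile normalization, 98 with no filter, 86 with slide as a term, 44 without the 2 arrays, 0 with only the groups compared and 3 to 2127 with 1 array left out. Of its 427 calls 20.6% were higher with acrylamide, against 8.11% with normexp background, 35.2% with quantile normalization and 33.3% with median scaling; morning minus night in controls had 57.2% higher, against 71.4%, 44.2% and 42.4%. Arrays of the same replicate number deviated together with r of -0.23 to 0.35 over 12 pairs, and 2 of 12 matched best with their own number. No pairing by number was seen in these values, which cannot exclude one, and the main fit used none. The replicate block gave 393 calls over all genes in the morning, 0 of 8 cartilage genes there and 5 of 8 for morning minus night. Acan, Matn3, Hapln1 probes A_64_P069734 and A_64_P157704 and Col9a1 probe A_43_P11136 read at background at night, which limits what can be said of their change.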
